A study of Mus musculus with 8 samples.

Results

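The comparison is between B cell tumours whose Miz1 lacks its POZ domain (deltaPOZ) and B cell tumours with intact Miz1 (wt), across the autosomal genes that these tumours express. Genes entered it when they lay on 1 of the 19 autosomes and reached 1 CPM (read counts scaled to library size) in at least 2 of the 4 B libraries. That left 11366 of the 36286 autosomal genes in the count files, and of 41214 genes in all. The series holds 8 mRNA libraries, each made from the spleen tumour of a separate C57Bl6 mouse. They comprise 2 B wt, 2 B deltaPOZ, 2 CD4+ T wt and 2 CD4+ T deltaPOZ tumours. The T libraries were used here only to estimate the spread that all 4 groups share. The labels give no age, no oncogene or carcinogen that started the tumours, no treatment, and no promoter or cell type in which the POZ domain was removed. Each B tumour came from 1 animal, so every B group has n = 2 biological replicates.

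Miz1, encoded by Zbtb17, is a zinc finger transcription factor that can activate genes by itself and can repress them when the oncoprotein Myc binds it. Its POZ domain is the part through which Miz1 molecules join each other, and without it Miz1 binds chromatin poorly. In the lymphoid lineages Miz1 is known for its part in the response of early B and T cells to interleukin 7. Other genes described as its targets serve vesicle transport, autophagy and the ribosome.

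The B libraries held 44.3 to 56.7 M gene counts, and a gene without a count may still lie at up to 0.0529 to 0.0677 CPM (3 counts, counting error only). B identity was in place in all 4 tumours: Cd79b stood at 481 to 974 CPM, Cd79a at 41.7 to 156 and Pax5 at 44.6 to 71.1. Sex followed genotype, with Xist at 979 and 1530 CPM in the wt tumours and at 0.959 and 0.779 in the deltaPOZ tumours, which is why genes of the X and Y chromosomes were left out. An effect of sex on autosomal genes cannot be told apart from one of genotype. Libraries also differed in other cells. The summed level of 15 neutrophil markers was 134 CPM in B wt 1, 819 in B wt 2, 61.6 in B deltaPOZ 1 and 66.5 in B deltaPOZ 2, and that of 17 macrophage markers was 141, 830, 623 and 123 in the same order. The erythroid markers summed to 235 CPM in B deltaPOZ 2 and to 9.66, 63.8 and 18.8 in B wt 1, B wt 2 and B deltaPOZ 1. In such bulk samples fewer cells of a type and less RNA per cell cannot be told apart.

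Zbtb17 itself (chromosome 4, 141444654 to 141467930 in GRCm38) stood at 66.4 and 49.7 CPM in the wt tumours and at 50.6 and 60.8 in the deltaPOZ tumours. Its log2 fold change, deltaPOZ minus wt as for every fold change given here, was -0.06 (SE 0.22) and did not pass the test (edgeR adjusted p = 0.922). The labels do not say which exons were removed, so a count over the whole gene does not check the allele.

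Few genes passed the test across the table. By the quasi-likelihood test of edgeR, adjusted after Benjamini and Hochberg over all 11366 genes, 12 genes passed an adjusted p of 0.05 (0.106%), of which 11 fell and 1 rose in deltaPOZ. At an adjusted p of 0.1 the counts were 17 higher (0.15%) and 44 lower (0.387%). At an unadjusted p of 0.05, used below only to describe gene classes, 809 genes were higher (7.12%) and 852 lower (7.5%). Both deltaPOZ libraries lay above both wt libraries for 2557 genes (22.5%) and below both for 2345 (20.6%), and these shares are the background for every class below. The median log2 fold change over all genes was 0.01, with 5744 genes above 0 and 5622 below. DESeq2 on the same table called 262 genes higher (2.31%) and 362 lower (3.18%) at an adjusted p of 0.05, with all 12 edgeR genes among them. The edgeR calls rest on the shared spread: fitted on the B libraries alone, none of the 12 passed (adjusted p 0.0612 to 0.287), while all 12 kept their sign.

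Ifi209, a member of the interferon-inducible p200 family, stood at 311 and 312 CPM in the wt tumours and at 81.6 and 84.2 in the deltaPOZ tumours, a log2 fold change of -1.91 (standard error 0.15, edgeR adjusted p = 0.0314). The wt pair and the deltaPOZ pair were each nearly level, far apart from each other. Cd37, a tetraspanin of mature B cells, stood at 268 and 259 CPM in wt against 68.9 and 85.2 in deltaPOZ (log2 fold change -1.77 with SE 0.18, edgeR adjusted p = 0.0423). The same adjusted p held for the other 9 genes that fell. Igfbp4, a secreted binder of insulin-like growth factors, went from 87.4 and 126 CPM in wt to 12.6 and 10.2 in deltaPOZ, and Asb2, which recruits substrates to a ubiquitin ligase, from 43.3 and 37.7 to 3.16 and 2.05. Tmx4, a thioredoxin-related membrane protein of the endoplasmic reticulum, went from 47.2 and 35.9 to 9.10 and 8.03 CPM, and Mier3, of a family of transcriptional corepressors, from 99.9 and 66.7 to 16.2 and 16.1. Frmd6 (a FERM domain protein), Lrfn4 (a leucine-rich adhesion protein) and the adhesion receptor gene Adgrg1 were at 11.2 and 17.2, 5.43 and 7.003, and 11.99 and 25.2 CPM in wt, and at 0.0800 to 1.33 CPM in the deltaPOZ libraries. Each of these genes was expressed in both wt tumours, and Adgrg1 and Lrfn4 were under 1 CPM in both deltaPOZ tumours. Genes of the Ifi200 family resemble each other closely, so reads may be split among them and the count of Ifi209 is uncertain to that extent.

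Spsb4 and Platr10 passed the test outside the naming rule, and are named because the count is small. Spsb4, which like Asb2 carries a SOCS box, was at 5.81 and 3.69 CPM in wt, at 0.0400 CPM in B deltaPOZ 1 and without a count in B deltaPOZ 2. Platr10, a long noncoding RNA on chromosome 3, was the 1 gene that rose: it stood at 0.457 and 0.369 CPM in wt and at 71.6 and 58.1 in deltaPOZ (log2 fold change 7.28 with SE 0.37, edgeR adjusted p = 0.0191). Leaving out any 1 library raised the adjusted p of at least 6 of the 12 above 0.05. Of the 12, 6 kept it without B deltaPOZ 2, 1 without B deltaPOZ 1, T wt 1 or T wt 2, and none without B wt 1, B wt 2 or either T deltaPOZ library, again with the same sign for all 12.

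Protein coding genes with an adjusted p between 0.05 and 0.1 did not pass and are given as values. On the higher side, Fzd9, a receptor for Wnt ligands, was at 1.68 and 1.27 CPM in wt and at 14.5 and 22.2 in deltaPOZ. Asph, an aspartate hydroxylase, was at 1.70 and 3.59 against 45.1 and 30.4 CPM. The glycine transporter gene Slc6a9 was at 0.0953 and 0.323 CPM against 5.20 and 9.10, and the lysolipid transporter gene Mfsd2a at 3.51 and 4.22 against 19.5 and 22.1. Both deltaPOZ tumours thus carried RNA of these 4 genes well above either wt tumour. The glycolytic enzyme gene Eno1 was at 407 and 509 CPM against 1071 and 969, and Eif3i, a subunit of the initiation factor eIF3, at 412 and 409 against 762 and 785. On the lower side, Cntln, a centriole protein gene, was at 41.8 and 52.9 CPM in wt and at 0.680 and 0.225 in deltaPOZ. Rragd, a GTPase of the amino acid sensing machinery at the lysosome, was at 37.2 and 26.8 against 4.68 and 6.56. Of the 17 genes higher at this threshold 7 lie on chromosome 4, which holds 741 of the 11366 genes tested. Asph, Slc6a9, Mfsd2a, Eno1 and Eif3i are among these 7. Of the 44 genes lower at this threshold 3 lie on that chromosome, Cntln and Rragd among them.

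Genes were then grouped into 145 classes, 92 of them lists by function and 53 families by symbol, of which 132 had at least 10 members tested. Each class is described by its counts and by the median fitted log2 fold change of the members tested, beside the background above, and no class was tested. Lists and members were chosen with earlier results of these data known. Shares above the background are therefore no independent evidence of a class's direction. The per-library medians plotted by class show 3 kinds of pattern: classes where the deltaPOZ pair stands below the wt pair, classes where it stands above, and classes that 1 library sets.

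**Figure D1:**
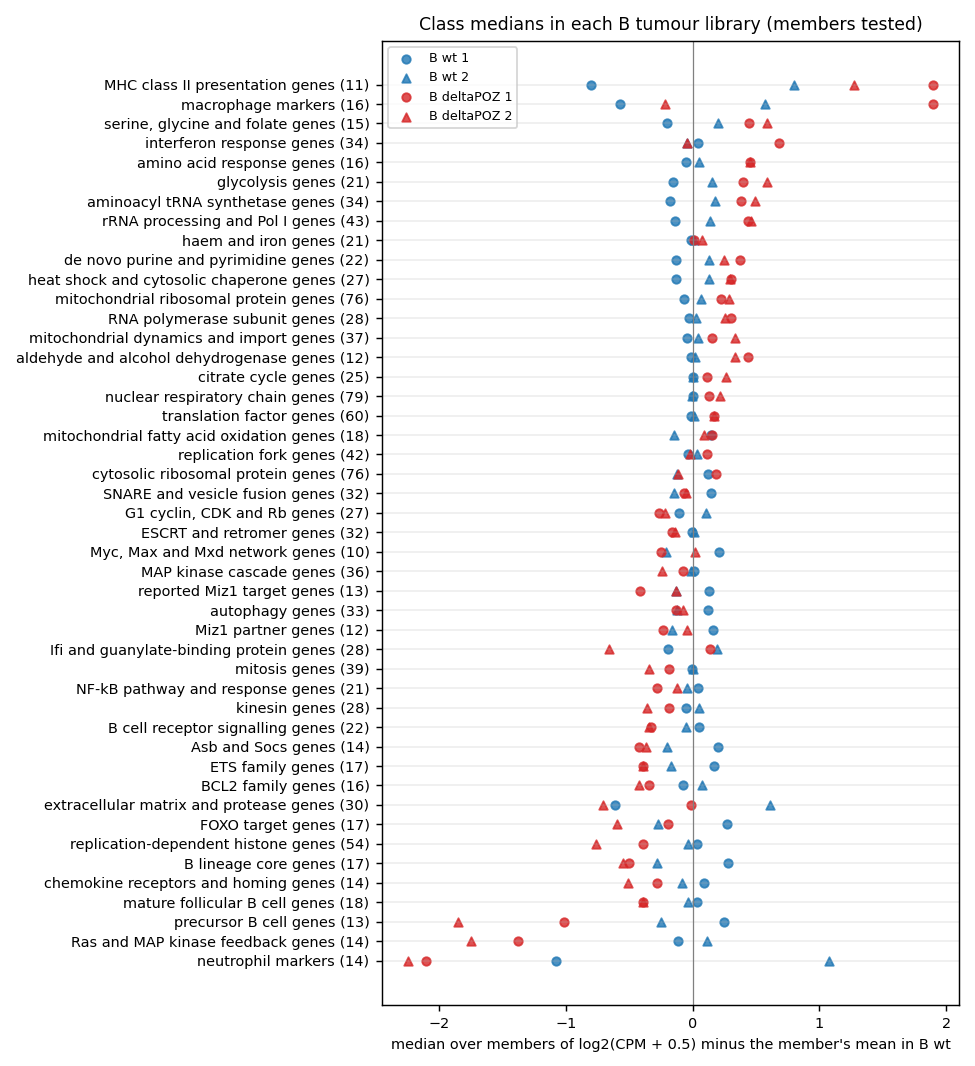
Median over the tested members of each class of log2(CPM + 0.5) relative to the member's mean in B wt, for B wt 1 and 2 (blue) and B deltaPOZ 1 and 2 (red), with the number of members in brackets. Both deltaPOZ points of the Ras and MAP kinase feedback genes (-1.38 and -1.75) lie below both wt points (-0.11 and 0.11), and those of the rRNA processing genes (0.44 and 0.46) lie above (-0.14 and 0.14).

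The Ras and MAP kinase feedback genes showed the lowest median of any class outside the neutrophil markers. Growth factor and antigen receptors signal through Ras to a chain of kinases that ends in ERK, and ERK induces a small set of genes whose products restrain the pathway (Sprouty, Spred and dual specificity phosphatases) or transmit it to the nucleus (the ETS factors Etv4 and Etv5, and Egr1). Of 19 listed members 14 were tested, with a median log2 fold change of -1.53. Of these 14, 11 were below 0, 9 did not overlap between the groups and were lower, and 9 had an unadjusted p under 0.05 and were lower (64.3%, against 7.5% of all genes). One of them, Dusp6, passed the test. This list too was chosen with earlier results of these data known, so the share only describes it.

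Dusp6, the cytosolic phosphatase that acts on ERK, fell from 374 and 261 CPM in wt to 58.1 and 47.2 in deltaPOZ (log2 fold change -2.59 with SE 0.27, edgeR adjusted p = 0.0423). Its nuclear relative Dusp4 was at 15.5 and 31.3 CPM in wt and at 2.00 and 2.21 in deltaPOZ (-3.47 with SE 0.64, edgeR adjusted p = 0.134). The Sprouty gene Spry2 was at 15.7 and 13.3 against 0.480 and 2.07 CPM (-3.50 with SE 0.69, edgeR adjusted p = 0.145), and Spry4 at 5.05 and 20.3 against 0.0800 and 0.0410. Each of these 4 genes was expressed by both wt tumours and stood several times lower in both deltaPOZ tumours, but 3 of them did not pass. Against the direction of the class, Spry1 was at 6.31 and 7.12 CPM in wt, 20.7 in B deltaPOZ 1 and 0.676 in B deltaPOZ 2, so the deltaPOZ pair lay on either side of wt. Dusp1, an immediate early gene, was at 3.81 and 5.85 against 7.88 and 3.26 CPM and overlapped.

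**Figure D2:**
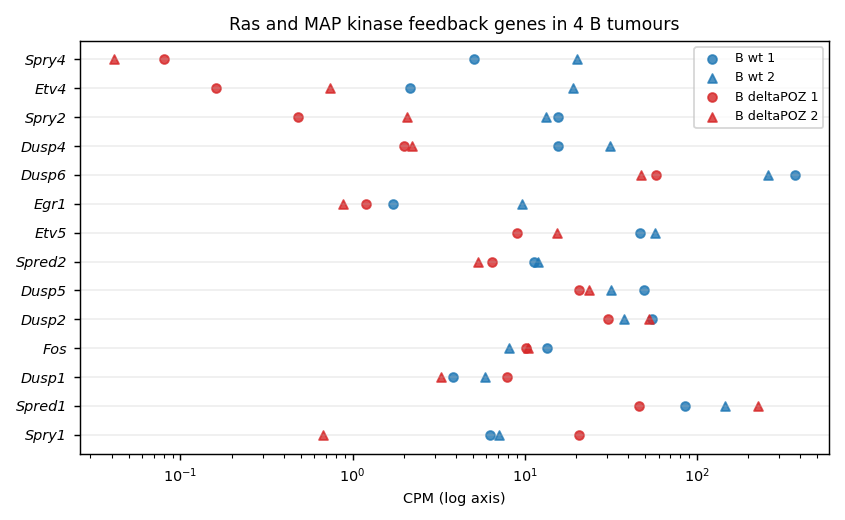
Levels in CPM (log axis) of the 14 tested Ras and MAP kinase feedback genes in B wt 1 and 2 (blue) and B deltaPOZ 1 and 2 (red), ordered by fold change. For Dusp6 the red points (58.1 and 47.2) lie left of the blue ones (374 and 261), while Spry1 has its red points on both sides.

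The class median stayed below 0 without any 1 library but moved with them: it lay between -2.22 (without B deltaPOZ 1) and -1.05 (without B wt 2) when each library was left out. It also moved with the choice of genes. Some members, such as Spry4, reached 1 CPM only in the wt libraries. With a filter of 5 CPM in 2 B libraries the median was -0.89, and without chromosomes 3, 4 and 12 it was -2.26. The kinases that carry the signal had a median closer to that of all genes. Among 36 tested genes of the MAP kinase cascade the median was -0.15, with 1 higher and 4 lower at an unadjusted p of 0.05. The immediate early genes (17 tested) had a median of 0.05, with 1 higher and 2 lower, 9 above 0 and 8 below.

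ETS factors as a family (17 tested of 23) had a median of -0.45, with 6 lower (35.3%) and 1 higher at an unadjusted p of 0.05. Etv4 and Etv5 belong to both groups. Erg, a factor of progenitor cells and a known leukaemia gene, was at 21.2 and 11.9 CPM in wt and at 0.160 and 0.0615 in deltaPOZ (edgeR adjusted p = 0.0599). Elk3, a partner of the serum response factor, was at 43.7 and 65.9 against 30.0 and 19.96 CPM, and Spib, which with its relative Spi1 drives B cell genes, at 279 and 93.1 against 66.4 and 77.1. In the other direction Erf, an ETS repressor that ERK controls, was at 9.05 and 12.3 against 14.9 and 27.4 CPM. The most abundant member, Ets1, overlapped between the groups (749 and 346 against 563 and 625 CPM). The family thus held members on both sides, and Erg was under 1 CPM in both deltaPOZ tumours.

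B cell stage genes were next. Precursor B cells rearrange their receptor genes with Rag1, Rag2 and Dntt and carry a surrogate light chain made of Vpreb1 and Igll1. Of 17 such genes 13 were tested, with a median of -1.35, 12 below 0 and 10 not overlapping and lower. At an unadjusted p of 0.05, 5 were lower (38.5%) and none higher, and none passed an adjusted p of 0.05. Vpreb1 was at 19.4 and 22.7 CPM in wt and at 0.0600 and 0.963 in deltaPOZ. Igll1 was at 42.5 and 33.2 against 0.0400 and 3.44 CPM. Both surrogate light chain genes were thus far lower in B deltaPOZ 1 and B deltaPOZ 2 than in either wt tumour, B deltaPOZ 1 being the lower of the pair. Myb, a factor of lymphoid progenitors, was at 494 and 349 against 163 and 242 CPM. Rag1 did not follow: it was at 1602 and 499 CPM in wt, 943 in B deltaPOZ 1 and 51.7 in B deltaPOZ 2, so that the order of the deltaPOZ pair was the reverse of that for Igll1. Without B deltaPOZ 1 the class median was -3.0.

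The core genes of the B lineage had a median closer to 0. All 17 listed were tested, 16 lay below 0 with a median of -0.58, 8 did not overlap and were lower, and 4 (23.5%) had an unadjusted p under 0.05. Tcf3, which encodes the E2A factor that starts the B programme, was at 630 and 377 CPM in wt and 271 and 295 in deltaPOZ (log2 fold change -0.83 with SE 0.25, edgeR adjusted p = 0.235). Cd79a, the signalling chain of the B cell receptor, was at 156 and 150 against 41.7 and 57.5 CPM, and Cd72, an inhibitory receptor, at 209 and 119 against 5.88 and 42.5. Irf8, a factor of B cells and myeloid cells, overlapped (107 and 151 against 120 and 144 CPM). No core gene passed the test. B wt 1 stood above B wt 2 in the class median (0.28 against -0.28), and without B wt 1 the median of the class was -0.34, without B wt 2 -0.93.

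**Figure D3:**
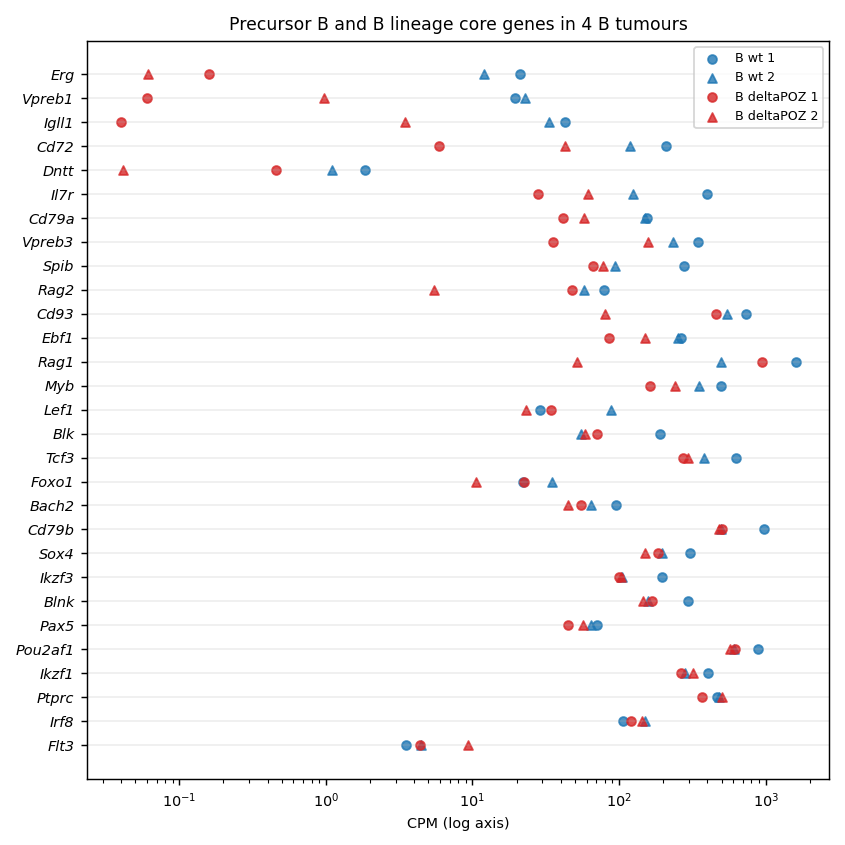
Levels in CPM (log axis) of tested precursor B and B lineage core genes in B wt 1 and 2 (blue) and B deltaPOZ 1 and 2 (red), ordered by fold change. Erg, Vpreb1 and Igll1 at the top are under 5 CPM in both deltaPOZ tumours and above 10 CPM in both wt tumours, while Irf8 near the bottom overlaps.

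Mature follicular B cell genes split in both directions. Of 18 tested, 4 were lower (22.2%) and 3 higher (16.7%) at an unadjusted p of 0.05, around a median of -0.69. Cd37 was the one that passed. Fcmr, the receptor for immunoglobulin M, was at 4.52 and 3.57 CPM against 0.460 and 0.471, and Tnfrsf13c, the receptor for the survival factor BAFF, at 115 and 45.1 against 37.6 and 21.2. Higher were S1pr1, which guides exit from lymphoid organs, at 37.1 and 19.2 against 104 and 48.8 CPM, and Cd55, which shields cells from complement, at 35.8 and 65.5 against 90.3 and 166. Levels of none of these 4 genes overlapped between the groups, and none of the 4 passed.

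Signal transduction from the B cell receptor had a median of -0.29 over 22 tested genes, with 5 lower (22.7%) and 1 higher at an unadjusted p of 0.05. Pik3ap1, an adaptor to phosphoinositide 3-kinase, was at 110 and 56.5 CPM in wt and 29.7 and 26.4 in deltaPOZ. The phosphatase gene Inpp5d was at 401 and 426 against 195 and 268 CPM. The NF-kB pathway and its response genes (21 tested, median -0.26) had 5 lower and none higher at that threshold. Of these 5, Tnfaip3 and the inhibitor genes Nfkbia and Nfkbie feed back on the pathway and Nfkb2 encodes a subunit: Tnfaip3 was at 14.8 and 14.7 against 7.94 and 8.05 CPM, Nfkbia at 123 and 56.1 against 24.5 and 37.5, Nfkbie at 26.2 and 13.8 against 7.06 and 7.26, and Nfkb2 at 28.2 and 17.1 against 11.99 and 9.55. All 4 were lower in both deltaPOZ tumours, with edgeR adjusted p from 0.149 to 0.269.

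Chemokine receptor and homing genes (14 tested) had a median of -0.60, with 3 lower and 2 higher at an unadjusted p of 0.05, and kept a median of -0.65 to -0.57 without any 1 library. The integrin subunit genes Itgal and Itga4 were at 21.2 and 29.4 against 9.38 and 5.43 CPM, and at 618 and 685 against 318 and 397. Itgb7, whose product pairs with that of Itga4, was in the other direction, at 4.27 and 24.3 against 41.4 and 126 CPM. Extracellular matrix and protease genes (30 tested) had a median of -0.53, but it was 0.54 without B wt 2. That library was highest in the summed neutrophil and macrophage markers. It was also highest in the stroma marker Col1a1, at 3.14 and 14.1 CPM in wt and 6.72 and 5.39 in deltaPOZ, and in Cdh5, at 0.476 and 2.33 against 0.46 and 0.328. The more abundant Pecam1 was highest in B wt 1, at 184 and 125 against 70.4 and 114 CPM. The 18 stroma and endothelium markers summed to 193 and 216 CPM in wt and to 112 and 135 in deltaPOZ. The part of such cells in this class was not tested. Mmp14, a membrane-bound matrix protease, was at 43.98 and 21.2 CPM in wt and 1.42 and 2.73 in deltaPOZ (edgeR adjusted p = 0.0983).

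Cell death and cytokine control genes were lower as classes in small steps. The BCL2 family (16 tested) had a median of -0.45, with 3 lower and none higher at an unadjusted p of 0.05. The survival gene Bcl2l1 was at 12.02 and 10.2 CPM in wt and at 5.26 and 3.18 in deltaPOZ, and Bok, a member that promotes death, at 6.77 and 24.3 against 3.26 and 0.471. The abundant survival gene Mcl1 overlapped at 468 and 330 against 487 and 356 CPM. FOXO target genes (17 tested, median -0.53) lay on both sides, 13 below 0 and 4 above. At an unadjusted p of 0.05, 3 were lower (17.6%) and 1 higher (5.88%). The class included Il7r, the receptor for interleukin 7, at 396 and 125 against 28.0 and 61.4 CPM, and Irs2, an insulin receptor substrate, at 31.4 and 12.4 against 10.8 and 4.43. The one higher was S1pr1, at 37.1 and 19.2 against 104 and 48.8 CPM. None of these genes passed, and without B wt 1 the median of that class was -0.05. Asb and Socs genes (14 tested, median -0.40), whose products carry the SOCS box, held Asb2 and, at an unadjusted p under 0.05, Socs6 at 47.2 and 49.0 against 10.9 and 30.0 CPM and Socs5 at 3.14 and 3.82 against 1.68 and 1.97. Their median was -0.01 without B wt 1.

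Genes described as Miz1 targets were read next. Of 17 listed, 16 matched a gene and 13 were tested, and Vps28 was not matched. Their median was -0.18, with 4 lower (30.8%, against 7.5% of all genes) and none higher at an unadjusted p of 0.05, and none at an adjusted p under 0.1. Vamp4, a vesicle fusion protein gene, was at 28.5 and 38.3 CPM in wt and at 12.5 and 6.80 in deltaPOZ (log2 fold change -1.79 with SE 0.34, edgeR adjusted p = 0.135). Exoc2, of the exocyst complex that tethers vesicles, was at 158 and 94.8 against 61.5 and 64.6 CPM, and Ambra1, an activator of autophagy, at 66.3 and 55.5 against 22.6 and 41.1. The ribosomal protein gene Rpl22 was at 790 and 670 against 398 and 453 CPM (-0.78 with SE 0.17, edgeR adjusted p = 0.162), although it lies on the distal part of chromosome 4, where 297 of 362 tested genes were above 0. All 4 were below wt in both deltaPOZ tumours. Tmem126a and Ndufa12, of the mitochondrion, were in the other direction at 24.4 and 28.3 against 37.7 and 38.9 CPM and at 91.9 and 88.4 against 97.2 and 124. The list was compiled with the results for Vamp4, Exoc2, Ambra1 and Rpl22 in these libraries known, and is no independent evidence of its direction.

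Wider membrane traffic classes had medians near 0 and single members far lower. Those given first were described because of their share of lower genes. ESCRT and retromer genes, which sort cargo at endosomes (32 tested), had a median of -0.13 with 7 lower (21.9%) and none higher at an unadjusted p of 0.05. Mvb12b, a subunit of the ESCRT-I complex, was at 13.9 and 15.1 CPM in wt and at 0.540 and 1.27 in deltaPOZ, and the sorting nexin gene Snx18 at 38.1 and 39.0 against 5.56 and 2.40 (edgeR adjusted p = 0.0534 for both). SNARE and vesicle fusion genes (32 tested) had a median of -0.11 with 6 lower (18.8%) and 1 higher. Beside Vamp4 these were led by Vamp8 at 80.1 and 50.4 against 20.6 and 31.6 CPM and Snap29 at 102 and 52.5 against 36.2 and 46.1, while Snap47 was at 3.51 and 7.16 against 14.0 and 10.3. Autophagy genes (33 tested, median -0.18) had 5 lower (15.2%) and none higher. Among them were Sqstm1, the cargo receptor p62, at 141 and 91.9 against 69.4 and 69.8 CPM, and Gabarap at 93.5 and 78.6 against 57.7 and 59.5. Without B wt 1 the medians of the SNARE and autophagy classes were 0.10 and 0.06. The following traffic classes did not meet the rule for description given below. Lysosome genes (31 tested, median 0.088) had 1 higher and none lower, and exocyst and tethering genes (28 tested, median 0.031) 1 of each. Clathrin, COP and adaptor genes (35 tested, median 0.013) had none higher and 2 lower. Rab GTPase genes (38 tested, median -0.235) had none higher and 3 lower.

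Motif content of the promoters was described for the same purpose. A DNA element reported for Miz1 holds the letters TCGGTAAT, and the E-box CACGTG is bound by Myc with Max. Both were searched on both strands in windows of 250 bases before to 50 after each gene start (RefSeq, GRCm38.p6). TCGGTAAT was in 31 of 32851 windows (0.0944%) and CACGTG in 2349 (7.15%). Of the tested genes 8555 had a window, and 10 of them held TCGGTAAT. The 10 stretches show where these letters sit in the promoters, since the motif is the one sequence tied to Miz1 itself. They run 5′ to 3′ on the strand of the gene with the 8 letters, or their reverse complement, in capitals.
Cdc27: tccggtagcacTCGGTAATttccggccaca
Myl4: tgtggccggaaATTACCGAgtgctaccgga
Nek2: caaggaatggaATTACCGAggccccaacag
Nudt13: cccagagtgcaTCGGTAATctctctgagac
Ppp3cb: ctgtagtagccTCGGTAATtttgctcaagt
Prom1: aaATTACCGAgccttgtggag
Ssu72: cctgATTACCGAgttctaggatt
Uhmk1: acaggaacaTCGGTAATtgtggctgtcc
Zc3h12c: tgttgctccacTCGGTAATaggttaagcaa
Zkscan6: ttcttaaagcgTCGGTAATacaaatataac

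The Cdc27 and Myl4 stretches are the same piece of DNA between a divergent pair of genes (chr11:104550636-104550665, read from the minus strand for Cdc27 and the plus strand for Myl4), and that of Ppp3cb is chr14:20546617-20546646 on the minus strand. None of the 4 genes Vamp4, Exoc2, Ambra1 and Rpl22 had the 8 letters in a window here. The 10 genes had a median log2 fold change of -0.16 (2 above 0 and 8 below) against 0.01 for all 8555 genes with a window. At an unadjusted p of 0.05 1 was higher and none lower. The one higher was Ssu72, a phosphatase of RNA polymerase II on chromosome 4, at 109 and 84.9 CPM in wt and 122 and 175 in deltaPOZ. Cdc27, of the anaphase-promoting complex, was at 143 and 150 against 73.6 and 169 CPM and overlapped. The median was 0.01 without B wt 1.

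E-box letters were in a window of 1047 tested genes (12.2%), whose median was 0.07. At an unadjusted p of 0.05, 94 were higher (8.98%) and 71 lower (6.78%). These shares were close to the 7.53% higher and 7.62% lower among all 8555 genes with a window. The letters are shown for 3 of the genes above that were lower, with the E-box in capitals.
Asb2: aatgatgacatCACGTGagggccgaagc
Cd37: gtcccaggaccCACGTGagtggaagtcc
Vamp4: catgtacaaccCACGTGctcctccatcg

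The Asb2 stretch lies at chr12:103356008-103356035 on the minus strand, that of Cd37 at chr7:45239051-45239078 on the minus strand and that of Vamp4 at chr1:162570341-162570368 on the plus strand. By class, 23.7% of the rRNA processing genes with a window held the letters, 25.5% of the translation factor genes, 7.46% of the mitochondrial ribosomal protein genes and none of 13 genes of serine, glycine and folate metabolism. Shares among the classes with higher medians thus lay on both sides of the 12.2% of all tested genes, and a match is not a binding site.

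Myc itself was at 382 and 274 CPM in wt and at 485 and 540 in deltaPOZ (log2 fold change 0.64 with SE 0.28, edgeR adjusted p = 0.355). Both deltaPOZ tumours lay above both wt tumours and the difference did not pass. Of the 10 tested genes of the Myc, Max and Mxd network, 1 was higher and 1 lower at an unadjusted p of 0.05. Mxd3, a partner of Max that opposes Myc, was at 18.6 and 12.1 against 6.78 and 4.96 CPM, and Mxi1, of the same family, at 67.0 and 41.9 against 94.6 and 99.2. Max was at 95.9 and 74.9 against 69.3 and 82.3 CPM. Of 12 tested genes for Miz1 partners, Npm1, the nucleolar protein nucleophosmin, was at 2950 and 3174 against 4247 and 3844 CPM, and Zbtb4 at 17.0 and 7.56 against 6.62 and 4.55. The median of the partners was -0.19, and it was -0.01 without B wt 1, -0.05 without B deltaPOZ 1, -0.30 without B wt 2 and -0.33 with chromosome medians subtracted.

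Several classes of growth genes had medians above 0, though few or none of their members had an adjusted p under 0.1. A growing cell makes ribosomes in the nucleolus from rRNA that RNA polymerase I transcribes, and charges tRNAs with amino acids. Of 43 tested rRNA processing and polymerase I genes, 42 were above 0 with a median of 0.43, 35 did not overlap and were higher (as 22.5% of all genes were), and 16 had an unadjusted p under 0.05 (37.2%, against 7.12%). None of the 43 had an adjusted p under 0.1. Their summed level was 11110 and 13410 CPM in wt and 16360 and 17020 in deltaPOZ. Utp4, of the small subunit processome, was at 124 and 157 CPM in wt and 251 and 224 in deltaPOZ (log2 fold change 0.76 with SE 0.18, edgeR adjusted p = 0.181). Polr1b, the second largest subunit of polymerase I, was at 188 and 256 against 382 and 483 CPM, and Nolc1, a nucleolar chaperone, at 265 and 379 against 545 and 643. Taf1b, of the polymerase I initiation complex, was the one below 0, at 96.8 and 39.7 against 47.8 and 49.8 CPM, and overlapped.

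Aminoacyl tRNA synthetase genes (34 tested) had a median of 0.43, with 32 above 0 and 8 higher (23.5%) and none lower at an unadjusted p of 0.05. Sars was at 136 and 167 against 282 and 266 CPM, Kars at 326 and 324 against 451 and 507, and Gars at 263 and 306 against 431 and 470, which load serine, lysine and glycine. The most abundant, Vars for valine, overlapped (634 and 447 against 544 and 538 CPM). RNA polymerase subunit genes (28 tested, median 0.24) had 6 higher (21.4%) and none lower. Translation factor genes (60 tested, median 0.16) had 9 higher (15%) and 2 lower, the latter being Eif2ak3, a kinase that halts initiation under stress of the endoplasmic reticulum, at 139 and 91.7 against 72.7 and 49.5 CPM, and Eef1akmt2 at 32.4 and 37.3 against 21.6 and 24.9. Eif2ak4, the kinase that senses uncharged tRNA, was in the other direction at 75.3 and 75.2 against 125 and 117 CPM. Cytosolic ribosomal protein genes did not share the difference: over 76 tested members the median was 0.06, with 2 higher and 1 lower.

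**Figure D4:**
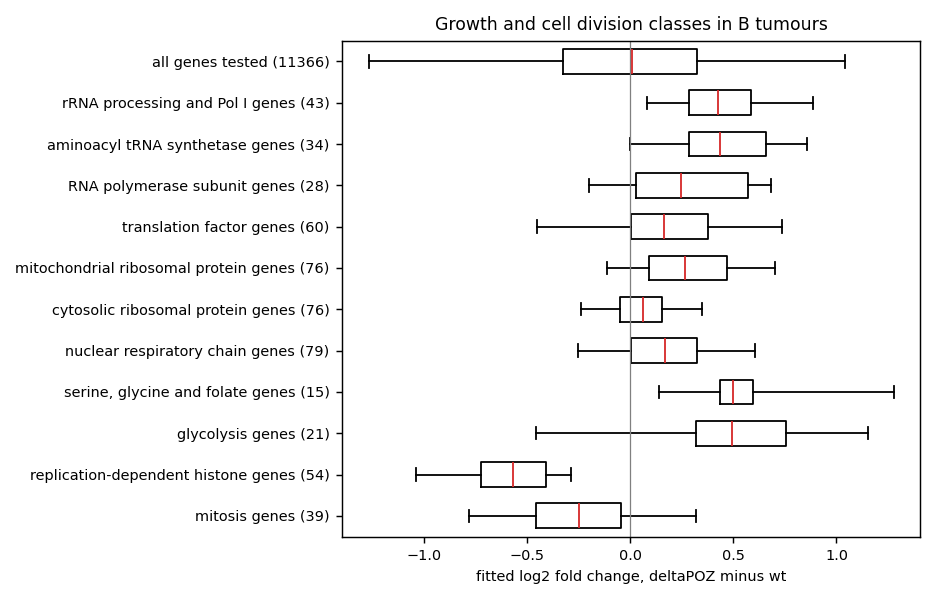
Fitted log2 fold change (deltaPOZ minus wt) of the members of growth and cell division classes and of all 11366 genes tested; boxes give quartiles with the median in red, whiskers the 5th and 95th percentile. The boxes of the rRNA processing and tRNA synthetase genes (medians 0.43 and 0.43) lie right of 0 and that of the histone genes (median -0.57) lies left of it, while the box of the cytosolic ribosomal protein genes (median 0.06) straddles 0.

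Mitochondrial classes followed with smaller medians. Genes for mitochondrial ribosomal proteins (76 tested) had a median of 0.26, with 63 above 0, 44 not overlapping and higher, and 15 higher (19.7%) against 1 lower at an unadjusted p of 0.05. Mrpl20 was at 108 and 126 CPM in wt and 169 and 232 in deltaPOZ, Mrpl1 at 53.3 and 69.0 against 90.8 and 89.8, and the one lower, Mrps23, at 68.0 and 62.2 against 46.2 and 43.8. Mitochondrial dynamics and import genes (37 tested, median 0.22) had 7 higher (18.9%) and none lower. Twnk, the helicase of mitochondrial DNA, was at 38.6 and 41.1 against 67.8 and 73.2 CPM, and Lonp1, a protease of the matrix, at 190 and 177 against 248 and 268. The nuclear genes of the respiratory chain (79 tested, median 0.17) had 6 higher and none lower, 7.59% against 7.12% of all genes.

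Several metabolic classes also had medians above 0. Serine, glycine and folate genes (15 tested) had a median of 0.50, with 14 above 0, 13 not overlapping and higher, and 3 at an unadjusted p under 0.05. Psph, the last enzyme of serine synthesis, was at 33.7 and 35.2 CPM against 47.1 and 52.0. Phgdh, the first enzyme of that path and the most abundant member, was at 355 and 335 against 528 and 436 CPM. Glycolysis genes (21 tested) had a median of 0.49, with 5 higher (23.8%) and none lower. Pgam1 was at 52.99 and 66.6 against 111 and 115 CPM, Ldha at 912 and 1243 against 1581 and 1883, and Pkm at 979 and 1161 against 1675 and 1770. The lactate transporter gene Slc16a1 was in the other direction at 1034 and 1051 against 790 and 728 CPM.

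Amino acid response genes, which cells induce when amino acids run short (16 tested, median 0.49), had 5 higher (31.2%) and 1 lower. Asns, asparagine synthetase, was at 53.1 and 84.8 against 168 and 226 CPM, Sesn2 at 3.68 and 4.26 against 8.10 and 7.75, and the one lower was Eif2ak3. Of 22 tested genes of purine and pyrimidine synthesis (median 0.31), 6 were higher (27.3%) and 3 lower (13.6%). The 6 higher were Ppat, Gart, Pfas, Adsl, Dhodh and Ctps and the 3 lower included Rrm2 and Dck. The purine enzyme genes Pfas and Adsl were at 234 and 324 against 525 and 455 CPM and at 120 and 168 against 235 and 231, while Rrm2 and Dck, which supply deoxynucleotides, were at 292 and 305 against 174 and 143 and at 210 and 185 against 141 and 103. Cytosolic chaperone genes (27 tested, median 0.27) had 4 higher and none lower, among them Cct8, of the chaperonin that folds actin and tubulin, at 778 and 932 against 1132 and 1533 CPM. Citrate cycle genes (25 tested, median 0.21) had 4 higher and 1 lower, aldehyde and alcohol dehydrogenase genes (12 tested, median 0.21) 4 higher and none lower, and mitochondrial fatty acid oxidation genes (18 tested, median 0.11) 3 higher and 1 lower. Haem and iron genes (21 tested) had a median of 0.31 with none higher and 2 lower, and it was -0.06 with chromosome medians subtracted and 0.01 without B deltaPOZ 2. The glycolytic enzyme gene Eno1, given earlier, had an edgeR adjusted p of 0.083 and did not pass. The other genes named in these metabolic classes did not pass either (edgeR adjusted p 0.17 or more).

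Histone and mitosis genes had medians below 0, while the replication fork genes (42 tested) had a median of 0.07, with 1 higher and 2 lower at an unadjusted p of 0.05, and -0.03 without B deltaPOZ 1. Replication-dependent histone genes (54 tested of 64) had a median of -0.57. All 54 were below 0, 48 did not overlap and were lower (as 20.6% of all genes were), and 10 had an unadjusted p under 0.05 (18.5%, against 7.5%). Their summed level was 17100 and 15520 CPM in wt and 12530 and 9795 in deltaPOZ. Hist1h2bp was at 65.0 and 47.2 against 21.8 and 17.5 CPM (log2 fold change -1.51 with SE 0.29, edgeR adjusted p = 0.145) and Hist1h2be at 521 and 405 against 299 and 264. Most of these genes lie in 1 cluster on chromosome 13, their copies are nearly identical so that reads may be split among them, and their main RNA has no poly(A) tail and is caught only in part by an mRNA kit. The single counts are therefore uncertain.

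Mitosis genes (39 tested) had a median of -0.25, with 8 lower (20.5%) and 1 higher at an unadjusted p of 0.05. Cdk1, the kinase that drives entry into mitosis, was at 333 and 289 CPM in wt and 212 and 201 in deltaPOZ, its activating phosphatase gene Cdc25c at 45.6 and 46.5 against 27.3 and 26.1, and Foxm1, a factor that induces mitotic genes, at 68.9 and 69.3 against 36.7 and 43.3. Bub1b, of the spindle checkpoint, was the one higher, at 361 and 434 against 586 and 721 CPM. Kinesin genes (28 tested, median -0.26) had 6 lower (21.4%) and 1 higher. Kif13a, a motor of endosome transport, was at 20.8 and 24.1 against 1.64 and 0.512 CPM (edgeR adjusted p = 0.0594), and the mitotic motor gene Kifc1 at 43.3 and 36.7 against 21.8 and 25.8.

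G1 cyclin, CDK and Rb genes (27 tested) had 7 lower (25.9%) and none higher, around a median of -0.13. The 7 were Ccnd3, E2f1, E2f6, E2f8, Rbl2, Cdkn2c and Cdkn2d, a mix of activators and brakes of the cycle. Cdkn2c, an inhibitor of Cdk4 and Cdk6, was at 87.4 and 47.9 CPM in wt and 28.3 and 15.7 in deltaPOZ, the pocket protein gene Rbl2 at 73.6 and 64.2 against 42.0 and 47.4, and the E2F repressor gene E2f6 at 25.1 and 27.0 against 12.6 and 12.2. Ccnd1 was at 167 and 216 against 272 and 226 CPM and Cdk4 overlapped (334 and 412 against 380 and 381). None of the cell division genes named here passed an adjusted p of 0.05.

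MHC class II and interferon response genes had higher medians that moved with single libraries. MHC class II presentation genes (11 tested) had a median of 1.31 with 9 above 0. Cd74, the invariant chain, was at 88.3 CPM in B wt 1, 269 in B wt 2, 635 in B deltaPOZ 1 and 523 in B deltaPOZ 2, and Ciita, the factor that drives the class, at 7.57, 33.6, 63.3 and 74.7. Neither gene overlapped between the groups, and neither passed (edgeR adjusted p = 0.333 and 0.37). H2-Ob, which tunes peptide loading in B cells, was in the other direction at 112 and 101 against 45.7 and 72.2 CPM. The median was 0.70 without B wt 1 and 2.44 without B wt 2. Macrophages also carry these RNAs, and the summed macrophage markers were highest in B wt 2 and next in B deltaPOZ 1. In the order above, C1qa was at 4.55, 9.61, 39.6 and 4.98 CPM, Adgre1 at 3.33, 12.4, 32.8 and 5.35, and Csf1r at 5.49, 43.4, 23.9 and 6.74. Ciita was highest in B deltaPOZ 2, where these 3 markers were at 4.98 to 6.74 CPM. Their part in this result was not tested.

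Interferon response genes (34 tested) had a median of 0.50, with 7 higher (20.6%) and 1 lower at an unadjusted p of 0.05, yet without B deltaPOZ 1 the median was -0.10. Rsad2, an antiviral enzyme, was at 0.800 and 1.38 CPM in wt, 10.2 in B deltaPOZ 1 and 3.75 in B deltaPOZ 2, and Ifit3 at 0.381 and 1.13 against 6.84 and 1.58. Ifi27 was in the other direction at 38.1 and 20.3 against 11.97 and 5.92 CPM. The Ifi and guanylate-binding protein genes (28 tested), a family by symbol to which Ifi209 belongs, had a median of -0.21, with 2 higher and 5 lower at an unadjusted p of 0.05. Of these 28, 2 did not overlap and were higher and 9 did not overlap and were lower. That median was -0.71 without B deltaPOZ 1, 0.06 without B deltaPOZ 2 and 0.05 without B wt 2.

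Marker lists of other cells differed between libraries of the same genotype. All 14 tested neutrophil markers were lower in deltaPOZ, with a median of -2.93 that was -1.07 without B wt 2. S100a9 was at 47.6 CPM in B wt 1, 302 in B wt 2, and 21.7 and 24.4 in B deltaPOZ, and 2 of the 14 had an unadjusted p under 0.05. Macrophage markers (16 tested) had a median of 1.26 that was -0.34 without B deltaPOZ 1, and none had an unadjusted p under 0.05. The 20 T cell markers summed to 46.6 and 88.5 CPM in wt and 66.9 and 88.6 in deltaPOZ, with Cd3e at 0.143 to 0.340 CPM in the 4 libraries. NK cell markers summed to 6.15, 42.2, 29.4 and 7.42 CPM in B wt 1, B wt 2, B deltaPOZ 1 and B deltaPOZ 2.

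Position on the chromosomes was also uneven. The median log2 fold change was 0.39 on chromosome 4. There 188 of 741 tested genes (25.4%, against 7.12% of all genes) were higher at an unadjusted p of 0.05. On its distal part beyond 120 Mb the median was 0.56, with 137 of 362 higher (37.8%) and 11 lower (3.04%, against 7.5% of all genes). Both deltaPOZ tumours were high there (median 0.53 and 0.51 relative to wt). On chromosome 3 (median 0.30) B deltaPOZ 1 was high at 0.48 and B deltaPOZ 2 was not at 0.03. Chromosomes 12 (-0.32) and 18 (-0.22) lay below all autosomes together. At an unadjusted p of 0.05, 62 of 422 (14.7%) and 48 of 277 (17.3%) of their genes were lower, against 7.5% of all genes. On chromosome 12 the wt pair differed (0.23 in B wt 1 and -0.23 in B wt 2), and B wt 2 was close to B deltaPOZ 1 and B deltaPOZ 2 (-0.32 and -0.26). With the median of each gene's own chromosome subtracted, the rRNA processing median was 0.42, that of the tRNA synthetases 0.41, of serine, glycine and folate genes 0.50 and of glycolysis 0.51. The Ras feedback median was -1.58 and that of the histone genes -0.51 on that scale. Only shifts of whole chromosomes are removed in this way: the distal part of chromosome 4 kept a median of 0.166. Whether copy number differs was not measured.

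**Figure D5:**
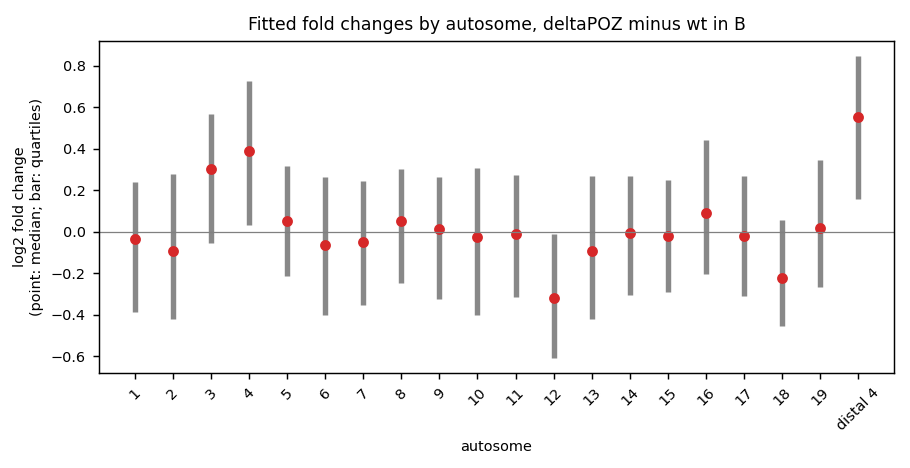
Median (points) and quartiles (bars) of the fitted log2 fold change of the tested genes of each autosome, and of the distal part of chromosome 4. Chromosome 4 (0.39) and its distal part (0.56) lie highest and chromosome 12 (-0.32) lowest.

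Of the 71 classes that met the rule for description, 29 are not given above, and the medians of those with at least 10 members tested ran from -0.361 to 0.357. A further 68 classes with at least 10 members tested did not meet the rule, with medians from -0.311 to 0.253.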

How the data were processed

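Raw read counts per gene, 1 file per library, were used as the authors deposited them. Per the submitters' processing notes, TopHat2 2.0.10, SAMtools, HTSeq and DESeq were used with mm10; the strand setting of the counting is not given in the sources used here. Rows without a gene were left out (no-feature reads 30.404 to 38.012% in the B libraries). GENCODE names matched 40340 of 41214 gene identifiers. Counts of all 8 libraries were fitted with 1 mean per group (edgeR 4.0.16 in R 4.3.3, TMM, quasi-likelihood test, Benjamini-Hochberg over the 11366 genes tested), tested on simulated data. Standard errors of fold changes follow from the F statistic (size over root F). CPM values are TMM-normalized. DESeq2 1.42.0 and limma 3.58.1 were alternatives.

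Members and lists were chosen with earlier results of these data known. Named were Zbtb17, up to 12 coding genes per direction at an adjusted p under 0.1 with a group mean of at least 5 CPM and no overlap, and, in each described class, the members with the smallest p and the most abundant one. Described classes had the 12 medians per direction furthest from all genes, at least 2 times the background share at an unadjusted p of 0.05, or a B stage, Miz1, Myc or other-cell theme. The classes and members given in detail, and a few genes outside the rule, were picked after their values were seen. A few members are not reported here.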

Additional observations from a re-analysis of the deposited data

How the results depend on the processing

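No paired analysis was possible because the replicate numbers follow the order of deposit and tie no tumour of one group to one of another. Only 48 classes, motif classes included, were followed through the settings, and they were picked for the text after their values were seen. The median of 35 of these 48 kept its sign in every setting run, which is no rate for the other classes. The 12 genes called kept their sign wherever they were tested. The cause of the other shifts was not tested. Genes called at an adjusted p of 0.05 numbered 624 with DESeq2, 6 with limma-voom, 1 with a filter on a total of 10 counts, 30 with a filter of 5 CPM, 0 with the B libraries alone, 31 with X, Y and unplaced genes kept, 7 without chromosomes 3, 4 and 12, and 0 to 36 without 1 library. At 0.1 they numbered 901 with DESeq2, 30 with the total filter, 1 with the B libraries alone, 40 without chromosome 4 and 0 to 144 without 1 library. At an unadjusted p of 0.05, 525 were higher with the B libraries alone, and 412 to 1006 were higher and 555 to 1029 lower without 1 library.

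With DESeq2 and with median-of-ratios size factors the medians were -0.15 for ESCRT, 0.15 for translation factor and 0.06 for E-box genes, and Vars was at -0.02. With limma-voom they were -2.02 for precursor B, -0.45 for mature follicular and 0.06 for E-box genes, with Myl4 at -1.13 and Spry1 at -0.81. The total filter gave 0.08 for E-box genes. The 5 CPM filter gave -0.89 for Ras feedback, -0.16 for mature follicular, -0.18 for ESCRT, 0.15 for translation factor, 0.06 for interferon and 0.05 for E-box genes, and -0.01 for Vars. Vars was at -0.00 with the B libraries alone. Without chromosome 4 the medians were -0.22 for B cell receptor signalling, 0.19 for translation factors and 0.21 for haem and iron genes, with Uhmk1 at 0.00. Without chromosomes 3, 4 and 12 they were -2.26 for Ras feedback, -0.84 for mature follicular, 0.42 for amino acid response, 0.18 for haem and iron, -0.05 for fatty acid oxidation and 0.04 for E-box genes. With chromosome medians subtracted they were -0.16 for ESCRT, -0.06 for haem and iron, 0.29 for dehydrogenase and 0.05 for E-box genes.

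A fit without B wt 2, high in myeloid genes, and B deltaPOZ 2, high in haemoglobin, was chosen after seeing the data. It called 0 genes at 0.05 and 222 at 0.1. Its lower medians were -1.08 for Ras feedback, -0.52 for mature follicular, -0.38 for B cell receptor signalling, -0.44 for Miz1 targets, -0.43 for Miz1 partners, -0.29 for ESCRT, -0.33 for autophagy, -0.15 for mitosis, -0.35 for BCL2, -0.37 for NF-kB, -0.69 for Asb and Socs, -1.16 for neutrophil and -0.36 for TCGGTAAT genes. Its higher ones were 0.65 for matrix, 0.29 for RNA polymerase, 0.20 for translation factor, 0.68 for amino acid response, 0.48 for purine and pyrimidine, 0.52 for chaperone, 2.81 for MHC class II, 2.73 for macrophage, 0.06 for E-box, 0.11 for respiratory chain, 0.16 for replication fork, 0.30 for Ifi, 0.11 for citrate cycle, 0.10 for dehydrogenase and 0.03 for haem and iron genes. Ets1 was at -0.41, Csf1r at 2.12, Myl4 at -3.77, Uhmk1 at 0.21 and Vars at -0.22.

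Leaving out each library in turn moved these medians over the following ranges. B stage and signalling classes gave -2.22 to -1.05 for Ras feedback, -0.47 to -0.20 for ETS, -3.0 to -1.29 for precursor B, -0.93 to -0.34 for B core, -0.70 to -0.28 for mature follicular, -0.36 to -0.12 for B cell receptor signalling, -0.32 to -0.15 for NF-kB, -0.64 to -0.05 for FOXO, -0.65 to -0.01 for Asb and Socs, -0.57 to -0.35 for BCL2 and -0.25 to -0.08 for MAP kinase genes. Traffic, Miz1 and division classes gave -0.43 to -0.10 for Miz1 targets, -0.23 to -0.05 for ESCRT, -0.16 to 0.10 for SNARE, -0.31 to 0.06 for autophagy, -0.77 to -0.39 for histone, -0.35 to -0.19 for mitosis, -0.38 to -0.15 for kinesin, -0.29 to 0.02 for G1, -0.32 to 0.01 for TCGGTAAT and 0.03 to 0.09 for E-box genes. Growth classes gave 0.30 to 0.58 for rRNA processing, 0.23 to 0.30 for RNA polymerase, 0.15 to 0.19 for translation factors, 0.16 to 0.34 for mitochondrial import, 0.13 to 0.22 for respiratory chain, 0.39 to 0.72 for serine and folate, 0.34 to 0.66 for amino acid response, 0.11 to 0.49 for purine and pyrimidine and 0.14 to 0.58 for chaperone genes. Others gave -1.38 to 0.54 for matrix, 0.70 to 2.44 for MHC class II, -0.10 to 0.65 for interferon, -3.72 to -1.07 for neutrophil and -0.34 to 2.07 for macrophage genes. The cytosolic ribosomal proteins ran from -0.13 to 0.18 and the Myc, Max and Mxd network from -0.26 to 0.01, and the Miz1 partners from -0.30 to -0.01. Ranges were -0.03 to 0.11 for replication fork, -0.71 to 0.06 for Ifi, 0.11 to 0.24 for citrate cycle, 0.11 to 0.41 for dehydrogenase, 0.01 to 0.31 for haem and iron and 0.08 to 0.27 for fatty acid oxidation genes.

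The fitted fold changes of some single genes changed sign without 1 library, with ranges of -0.55 to 2.52 for Adgre1, -0.51 to 2.49 for C1qa, -1.85 to 1.48 for Csf1r, -0.99 to 0.20 for Cdc27, -0.11 to 0.19 for Cdk4, -0.57 to 0.71 for Dusp1, -0.33 to 0.78 for Ets1, -0.20 to 0.30 for Irf8, -0.34 to 0.02 for Max, -0.17 to 0.35 for Mcl1, -3.49 to 1.20 for Myl4, -0.41 to 0.08 for Nek2, -0.69 to 0.09 for Nudt13, -3.31 to 1.63 for Spry1, -0.99 to 0.30 for Taf1b, -0.27 to 0.18 for Uhmk1, -0.23 to 0.27 for Vars, -0.25 to 0.16 for Zbtb17 and -0.43 to 0.26 for Zkscan6. With 2 tumours per genotype, small differences are not detectable at this number of samples.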
